A study of Homo sapiens with 18 samples.

Results

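The 40 genes described here encode nucleolar ribosome biogenesis factors. They were taken by name from a fixed list of nucleolar and rRNA processing genes. No cut on measured values was used, but the list was chosen with earlier results of these data known. All 40 were found among the 25369 genes of both deposited tables, 1 for each cell line. All 40 had a mean of at least 10 normalized counts in both lines, so that each was tested in every comparison. By role, 6 act with RNA polymerase I, 6 in small nucleolar ribonucleoproteins (snoRNPs), 12 in assembly of the small ribosomal subunit and 14 in assembly of the large subunit, and 2 are abundant nucleolar proteins with several functions.

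Ribosomes are made in the nucleolus. RNA polymerase I transcribes a long rRNA precursor, snoRNPs direct its chemical modification and first cuts, and separate sets of assembly factors turn the pieces into precursors of the small and the large subunit, which leave the nucleus through the export receptor XPO1. In proliferating B lymphoma cells this pathway is highly active, and many of its genes are textbook targets of the transcription factor MYC, which with its partner MAX binds the E-box.

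The study treated JEKO1 and MAVER, established B cell lymphoma lines used as models of mantle cell lymphoma, for 6 h and measured transcripts by RNA-seq with n = 3 libraries in each of 6 groups. JEKO1 was treated with IB or with DMSO, and MAVER with IB, KPT, PU or DMSO. The series text names ibrutinib at 0.4 µM, an inhibitor of the kinase BTK, and selinexor at 1.5 µM, an inhibitor of XPO1, and the labels IB and KPT were read as these. Neither the meaning of PU nor its dose is given in these sources, and the label is used as written. DMSO is the solvent. Each line is a single established line, neither is described as genetically altered for this study, and the replicates are called biological, with no word on how cultures were separated, so that p-values reflect the spread among these libraries, which may be technical.

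Whole reads recovered from the deposited values numbered 5374226 to 17040599 per library. The KPT libraries A, B and C held 5374226, 7924550 and 7727571, fewer than any other MAVER library (lowest 8035123, PU library A). The part of depth in the KPT results was not tested. SOX11, a marker of mantle cell lymphoma, had 605 normalized counts or more in every library, and the B cell factor PAX5 was detected in all of them. The 4 T cell markers summed to at most 17.9. XPO1, the receptor that selinexor binds, was 11244 ± 346 normalized counts with KPT and 5232 ± 99.2 with DMSO (SD, n = 3; log2 fold change 1.10 ± 0.042 SE, adjusted p = 8.17e-24). RNA45S5, the gene entry of the rRNA precursor, varied widely between libraries of 1 group. RNA45S5 has 1 value per library, in which precursor and mature rRNA are not separated, so it is not read here as a precursor level. It had 53819, 9092 and 66933 normalized counts in the KPT libraries A, B and C, 32274, 15503 and 15476 in the PU libraries, 20743, 19941 and 7919 in the MAVER IB libraries and 16069, 19295 and 13835 in the MAVER DMSO libraries, and 17262, 24758 and 16416 in the JEKO1 IB libraries and 25147, 24253 and 65331 in the JEKO1 DMSO libraries. KPT A and C, PU A and JEKO1 DMSO C were high and MAVER IB C was low, so counts that rest on these libraries are also given without them. EGR1, an immediate early gene picked out after its values were seen, had 211 ± 15.8 with IB and 17.7 ± 3.12 with DMSO in JEKO1, but 0.321 ± 0.556 with IB and 33.2 ± 9.09 with DMSO in MAVER (SD, n = 3). Opposite responses of the lines and exchanged JEKO1 labels cannot be told apart, so every JEKO1 direction below holds for the labels as given.

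Promoter sequences are shown because the data turn on genes that moved together and because the E-box, CACGTG (a palindrome, so identical on both strands), occurs at some of their starts. RefSeq promoters (GRCh38.p14, 250 bases before to 50 after the start) were matched by symbol for 32 of the 40 genes. RRP1B, RRS1, NOLC1, NOP58, TCOF1, POLR1E, RRP12 and BOP1 had no entry. CACGTG was present in at least 1 promoter of 14 of the 32 genes (43.8%), in 35.9% of their 39 promoters, in 13.3% of the 8346 tested MAVER genes with a promoter entry and in 7.26% of all 35116 promoters. The windows below run from 80 bases before to 30 after the start, 5′ to 3′ on the gene's strand, with the E-box in capitals. The first 5 belong to the genes with the lowest KPT fold changes among those with a box in this window, and FBL is shown as the gene with a box that was not called with KPT.
DDX21 (chr10:68956567-68956676, forward strand): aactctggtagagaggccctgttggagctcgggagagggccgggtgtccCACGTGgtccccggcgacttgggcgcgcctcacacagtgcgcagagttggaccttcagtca
RRP9 (chr3:51941875-51941984, reverse strand): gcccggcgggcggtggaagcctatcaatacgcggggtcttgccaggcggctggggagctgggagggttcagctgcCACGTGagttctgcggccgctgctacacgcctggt
UTP20 (chr12:101280025-101280134, forward strand): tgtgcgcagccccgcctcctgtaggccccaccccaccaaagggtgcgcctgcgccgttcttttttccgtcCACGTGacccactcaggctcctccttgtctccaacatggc
WDR43 (chr2:28894587-28894696, forward strand): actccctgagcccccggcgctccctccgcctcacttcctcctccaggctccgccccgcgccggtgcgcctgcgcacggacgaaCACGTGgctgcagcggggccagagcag
MRTO4 (chr1:19251725-19251834, forward strand): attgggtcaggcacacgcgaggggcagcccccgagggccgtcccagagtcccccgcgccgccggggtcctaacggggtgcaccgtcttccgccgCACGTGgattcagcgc
FBL (chr19:39846350-39846459, reverse strand): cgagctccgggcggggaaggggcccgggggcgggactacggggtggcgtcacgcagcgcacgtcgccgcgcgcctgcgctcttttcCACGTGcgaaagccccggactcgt
The box began at base -31 relative to the start in DDX21, -5 in RRP9 and -10 in UTP20, and at base 4 in WDR43, 15 in MRTO4 and 7 in FBL, where base 1 is the first transcribed base. A match is a match of letters only. With KPT the 6 genes had log2 fold changes of -1.09 (DDX21), -1.08 (RRP9), -0.74 (UTP20), -0.68 (WDR43), -0.64 (MRTO4) and 0.030 (FBL). The genes were picked by these values, so the contrast of low values with a value near 0 was fixed by the choice.

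Summed over the 40 genes, transcripts of the set were lower with KPT and with PU than with DMSO. The sum was 69229, 69557 and 69321 normalized counts in the KPT libraries A, B and C, 65351, 65355 and 65033 in the PU libraries, 95211, 95642 and 97999.8 in the MAVER IB libraries and 96102, 97688 and 97235 in the MAVER DMSO libraries. All KPT and PU libraries lay below all IB and DMSO libraries, and the IB and DMSO ranges overlapped. In JEKO1 the sum was 107450.0, 113016 and 113867 with IB and 120659, 119562 and 121466 with DMSO, with no overlap. Abundant genes weigh most in such sums, so a sum does not show that most genes moved. NCL alone had a mean of 22193 normalized counts with IB and 25694 with DMSO in JEKO1. In bulk RNA, fewer cells and less RNA per cell cannot be told apart, and normalized counts are relative to the library, so none of these values measures RNA per cell.

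**Figure D1:**
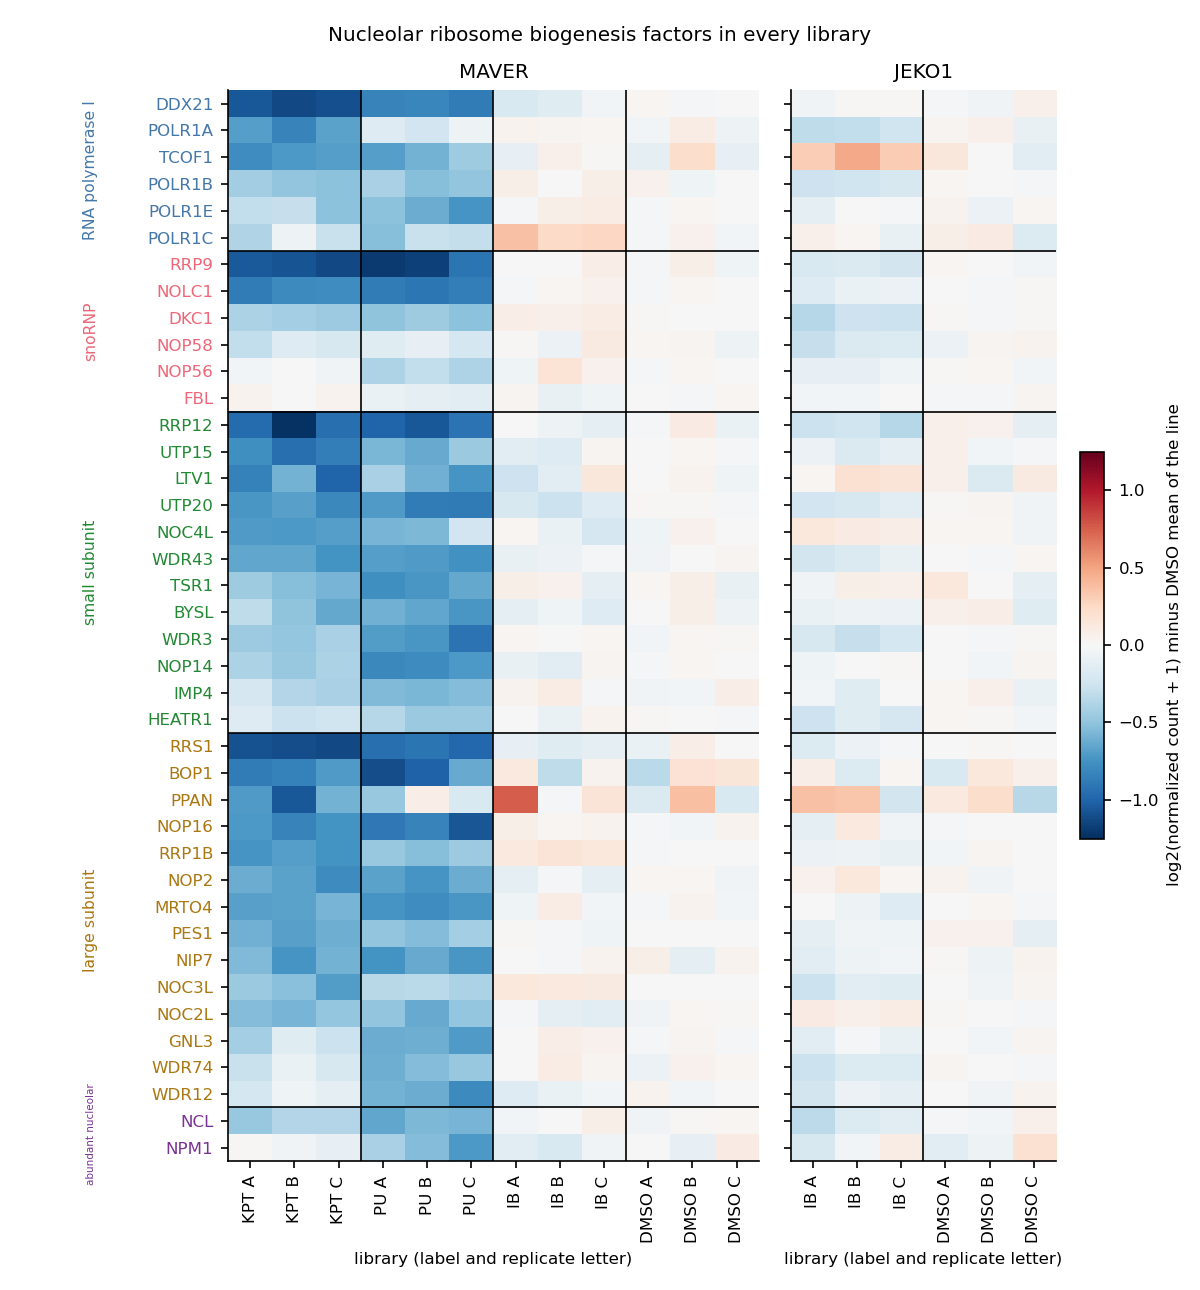
Level of each of the 40 genes in every library, as log2(normalized count + 1) minus the mean of the DMSO libraries of the same line (colour scale), with genes in rows by role and libraries in columns by group and replicate letter. Nearly all rows are blue in the KPT and PU columns, FBL and NOP56 are near 0 in the KPT columns, and the IB columns are pale apart from TCOF1 in JEKO1 and PPAN, POLR1C and a few others.

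In MAVER, most of the set fell with KPT. Of the 40 genes 36 fell and 0 rose (limma on log2(normalized count + 1), Benjamini-Hochberg adjusted p under 0.05), while 28.5% of all 11099 genes tested fell and 27.3% rose. At an unadjusted p under 0.05 the count of genes that rose was 0, and edgeR and DESeq2 also called 0 higher and 36 lower each. The median log2 fold change was -0.59 over the 40 genes and -0.0014 over all genes, and 4 genes, RRS1, DDX21, RRP9 and RRP12, fell at least 2-fold, against 1.36% of all genes. For 37 genes every KPT library lay below every DMSO library, against 30.7% of all genes. With KPT library B as the only KPT library, low in RNA45S5, 32 genes were called lower and 0 higher. That library alone is assumed to vary like the other groups, and the calls it lost were those of POLR1C (adjusted p = 0.676), NOP58 (adjusted p = 0.0589), WDR74 (adjusted p = 0.451) and GNL3 (adjusted p = 0.0995).

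Nearly all of the set fell with PU. Of the 40 genes 39 fell and 0 rose, while 27.5% of all genes fell and 27.6% rose. At an unadjusted p under 0.05, 0 rose by limma, and edgeR and DESeq2 each called 0 higher and 39 lower. The median log2 fold change was -0.59 over the 40 genes and 0.0069 over all genes, and 1 gene, RRP9, fell at least 2-fold, against 1.24% of all genes. For 39 genes every PU library lay below every DMSO library, against 30.1% of all genes. KPT and PU were set against the same DMSO libraries, so their fold changes share that error and are given side by side only. Without PU library A, rich in RNA45S5, 39 genes were called lower and 0 higher. The 6 B cell markers summed to 26824 to 27729.9 normalized counts with KPT, 29682 to 30579 with PU and 25323 to 26256 with DMSO, and the mantle cell lymphoma markers CCND1 and SOX11 to 53302 to 54922 with KPT, 42427 to 44989 with PU and 57833 to 59688 with DMSO. The sum of the first list was thus higher and that of the second lower than DMSO in every KPT and PU library. Over the MAVER libraries CCND1 had 41800 to 59000 and SOX11 605 to 1090, so CCND1 held nearly all of the second sum. MS4A1, at 9760 to 17800, held the largest part of the first, so neither sum shows that each marker moved. The fibroblast list, of which COL1A1 held nearly all counts, summed to 659 to 747 normalized counts in PU libraries and 62.5 to 74.6 in DMSO libraries, with COL3A1 at 0 in every library and COL1A2 at most 2.38. The epithelial list, mostly EPCAM, summed to 213 to 252 with KPT, 288 to 326 with PU and 171 to 209 with DMSO, with CDH1 at 0 in every library. The part of these marker genes in the KPT and PU results was not tested.

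**Figure D2:**
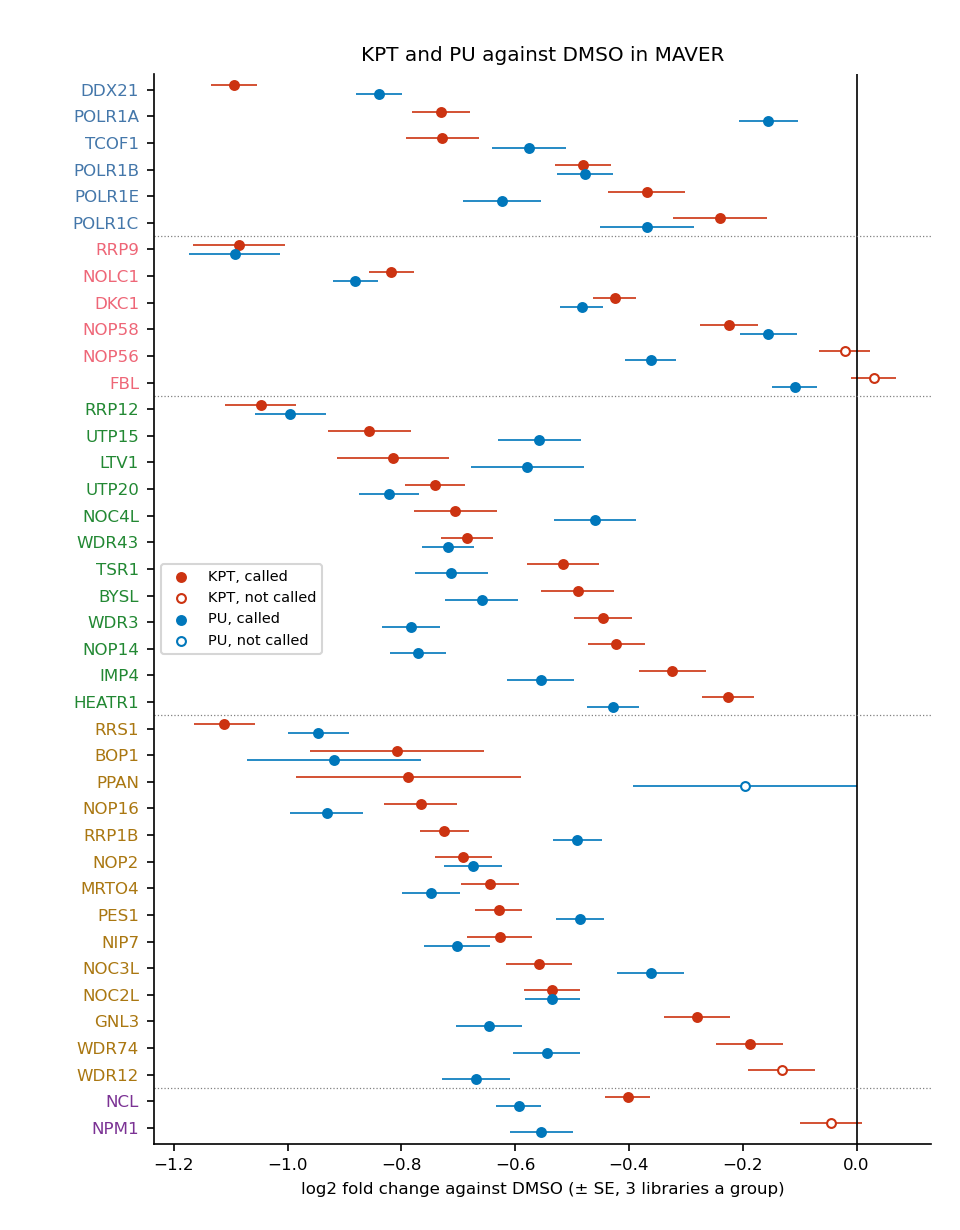
Log2 fold change against DMSO in MAVER (horizontal axis, ± SE, n = 3 libraries a group) for the 40 genes, KPT in red above PU in blue, with genes grouped by role. Filled points passed an adjusted p under 0.05; with KPT the open points are NOP56, FBL, WDR12 and NPM1, and with PU only PPAN is open.

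The transcription group, RNA polymerase I with TCOF1 and DDX21, fell in 6 of 6 cases with both KPT and PU. Its summed level was 7810.2 ± 118 normalized counts with KPT, 9106 ± 82.8 with PU, 13587 ± 437 with IB and 14028 ± 198 with DMSO (SD, n = 3). DDX21 held much of this sum, with means of 3611, 4309, 7068 and 7709 in the same order, so the sum mostly follows this gene. DDX21, a helicase that links polymerase I transcription to rRNA processing, had the lowest value of the group with KPT. DDX21 had 3703, 3528 and 3601 normalized counts in the KPT libraries and 4327, 4383 and 4218 in the PU libraries, against 6766, 6927 and 7511 in the IB libraries and 7816, 7561 and 7749.8 in the DMSO libraries. DDX21 thus had a log2 fold change against DMSO of -1.09 ± 0.041 with KPT (adjusted p = 5.47e-24) and -0.84 ± 0.041 with PU (adjusted p = 1.1e-20). No KPT or PU library reached the DMSO range.

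POLR1A, the largest subunit and catalytic core of the polymerase, fell less with PU than with KPT (PU over KPT 0.57 ± 0.052 in log2, adjusted p = 1.76e-12). POLR1A had 1245, 1127 and 1258 normalized counts in the KPT libraries and 1795, 1697 and 1918 in the PU libraries, against 2074, 2059 and 2035 in the IB libraries and 1961, 2141 and 1921 in the DMSO libraries. In log2, POLR1A differed from DMSO by -0.73 ± 0.052 with KPT (adjusted p = 2.18e-15) and -0.16 ± 0.052 with PU (adjusted p = 0.01). The highest PU library lay just below the lowest DMSO library. The call with PU was lost without DMSO library B (adjusted p = 0.107) or PU library B (adjusted p = 0.0972), and without the variance trend (adjusted p = 0.0633). POLR1B, the other subunit of the active centre, fell with both. POLR1B had 1205, 1153 and 1141 normalized counts in the KPT libraries and 1227, 1128 and 1158 in the PU libraries, against 1717, 1639 and 1709 in the IB libraries and 1693, 1572 and 1624 in the DMSO libraries. Against DMSO, POLR1B had log2 fold changes of -0.48 ± 0.049 with KPT (adjusted p = 6.35e-11) and -0.48 ± 0.049 with PU (adjusted p = 7.31e-11). POLR1C, which RNA polymerase III shares, and POLR1E, the homologue of a yeast initiation subunit, are the other polymerase subunits among the 40 genes. POLR1C had 292, 363 and 313 normalized counts in the KPT libraries and 263, 314 and 308 in the PU libraries, against 490.3, 447 and 456 in the IB libraries and 373, 395 and 371 in the DMSO libraries. POLR1C thus had a log2 fold change against DMSO of -0.24 ± 0.083 with KPT (adjusted p = 0.0134) and -0.37 ± 0.083 with PU (adjusted p = 0.000236). The KPT call of POLR1C was lost without DMSO library B (adjusted p = 0.057) or KPT library A (adjusted p = 0.105), and its libraries ranged from near the DMSO level in KPT B to well below it in KPT A. POLR1E had 543, 549 and 469.7 normalized counts in the KPT libraries and 469, 436 and 403 in the PU libraries, against 661, 708 and 718 in the IB libraries and 661, 682 and 669.9 in the DMSO libraries. In log2, POLR1E differed from DMSO by -0.37 ± 0.068 with KPT (adjusted p = 1.45e-05) and -0.62 ± 0.068 with PU (adjusted p = 2.99e-10). TCOF1 encodes treacle, a scaffold for polymerase I and rRNA modification in the nucleolus. TCOF1 had 949, 982 and 1007 normalized counts in the KPT libraries and 1006, 1076 and 1190.4 in the PU libraries, against 1509, 1694 and 1642 in the IB libraries and 1501, 1886 and 1506 in the DMSO libraries. Against DMSO, TCOF1 had log2 fold changes of -0.73 ± 0.065 with KPT (adjusted p = 1.55e-12) and -0.58 ± 0.065 with PU (adjusted p = 6.06e-10). POLR1C overlaps XPO5 and 4 other genes on the opposite strand in the annotation (GENCODE release 29, GRCh38), and with the counting's strand setting not given in the sources used here its level is uncertain. Opposite-strand overlaps are also annotated for POLR1E, HEATR1, UTP15, WDR3, IMP4, NOP14, RRP12, LTV1, TSR1 and BOP1. They are annotated too for PES1, WDR12, NOP16, MRTO4, NIP7, WDR74, NOC2L and GNL3, so the same limit holds for all of these levels.

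**Figure D3:**
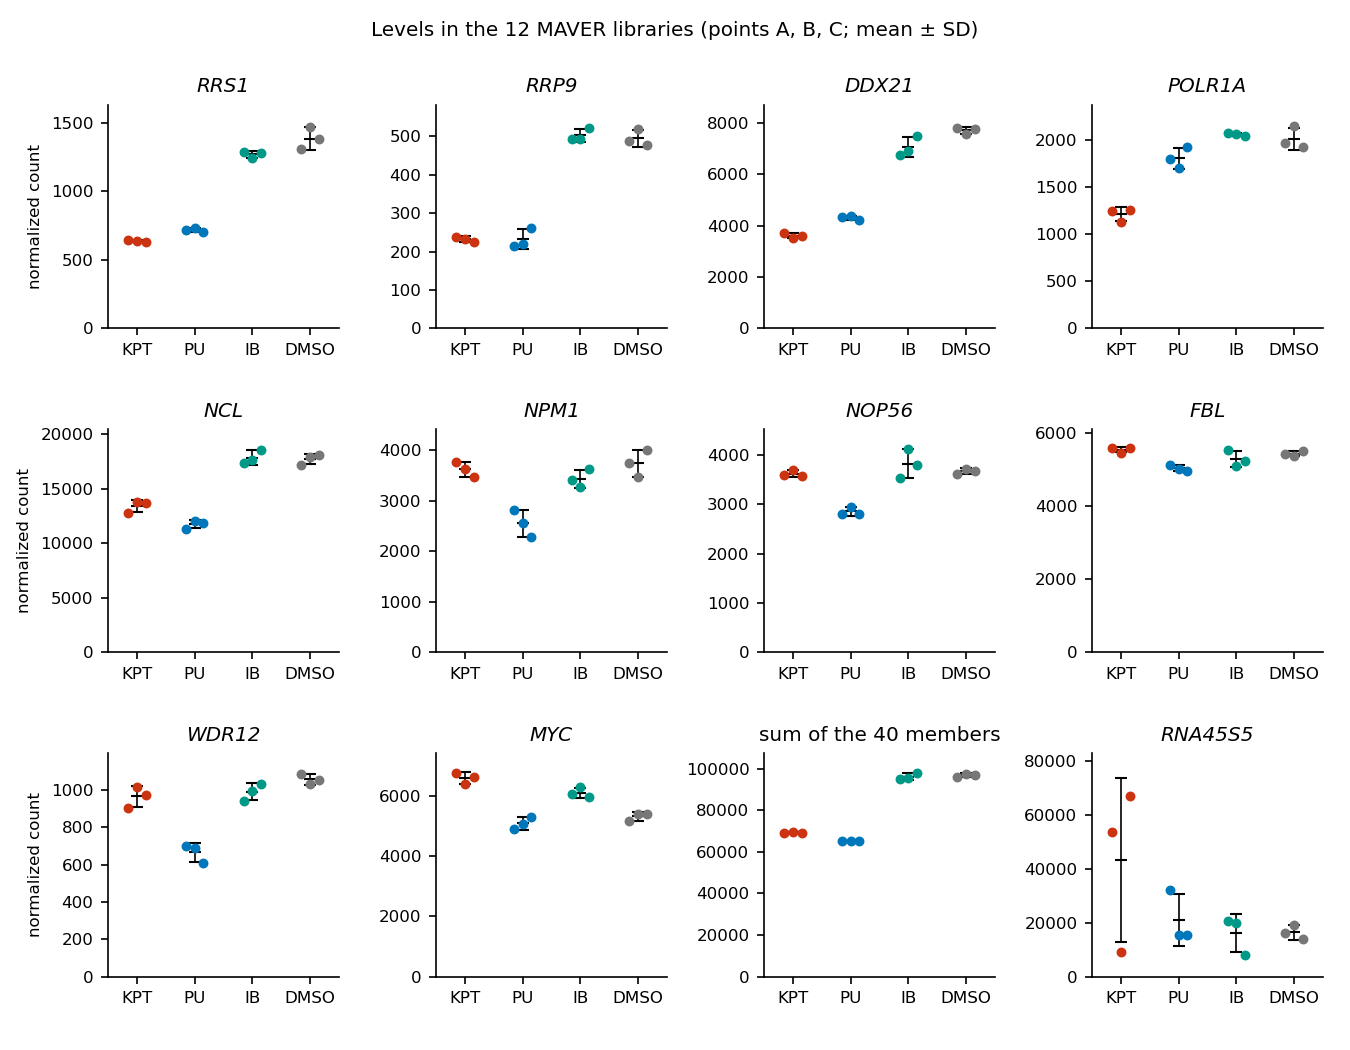
Normalized counts in the 12 MAVER libraries for 9 genes of the set, for MYC, for the sum of the 40 genes and for RNA45S5; points are replicates A, B and C from left to right, and bars give mean ± SD (n = 3). RRS1, RRP9 and DDX21 are low with KPT and PU, POLR1A mainly with KPT, NPM1, NOP56 and WDR12 mainly with PU, and FBL is nearly level.

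The snoRNP group was uneven. With KPT 4 of 6 genes fell and with PU 6 of 6. Their summed level was 19916 ± 105 normalized counts with KPT, 18367 ± 216 with PU, 25527 ± 232 with IB and 24987 ± 99.4 with DMSO (SD, n = 3). RRP9, a protein of the U3 snoRNP that is needed for the first cuts of the rRNA precursor, had the lowest PU fold change of all 40 genes. RRP9 had 239, 234 and 226 normalized counts in the KPT libraries and 215, 219 and 262 in the PU libraries, against 493, 492 and 523 in the IB libraries and 487, 520.1 and 478 in the DMSO libraries. RRP9 thus had a log2 fold change against DMSO of -1.08 ± 0.080 with KPT (adjusted p = 8.34e-15) and -1.09 ± 0.080 with PU (adjusted p = 5.48e-15). NOLC1, a chaperone of snoRNPs, followed. NOLC1 had 3583, 3762 and 3815 normalized counts in the KPT libraries and 3565, 3506 and 3609 in the PU libraries, against 6507, 6688 and 6791 in the IB libraries and 6472, 6658 and 6535 in the DMSO libraries. In log2, NOLC1 differed from DMSO by -0.82 ± 0.039 with KPT (adjusted p = 1.29e-20) and -0.88 ± 0.039 with PU (adjusted p = 5.44e-22). Both genes were below the DMSO range in every KPT and PU library.

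The core proteins of the box C/D snoRNPs, which carry out methylation of rRNA, had the values closest to 0 among the 6 snoRNP genes with KPT. FBL, the methyltransferase itself, was not called with KPT. FBL had 5600.5, 5473 and 5607 normalized counts in the KPT libraries and 5143, 5029.5 and 4979.6 in the PU libraries, against 5558, 5105 and 5241 in the IB libraries and 5436, 5377 and 5524 in the DMSO libraries. Against DMSO, FBL had log2 fold changes of 0.030 ± 0.039 with KPT (adjusted p = 0.537) and -0.11 ± 0.039 with PU (adjusted p = 0.0176). The interval of the KPT effect ran from -0.049 to 0.11, and the small PU fall lost its call without DMSO library C (adjusted p = 0.0614) or PU library C (adjusted p = 0.0514), and without the variance trend (adjusted p = 0.0515). NOP56 and NOP58 form the scaffold around FBL. NOP56 had 3588, 3688 and 3561 normalized counts in the KPT libraries and 2808, 2951 and 2799.7 in the PU libraries, against 3531, 4115 and 3795 in the IB libraries and 3599, 3718 and 3679 in the DMSO libraries. NOP56 thus had a log2 fold change against DMSO of -0.021 ± 0.045 with KPT (adjusted p = 0.716) and -0.36 ± 0.045 with PU (adjusted p = 6.41e-09). NOP56 overlapped DMSO with KPT but not with PU. NOP58 had 1566, 1736 and 1695 normalized counts in the KPT libraries and 1754, 1814 and 1674 in the PU libraries, against 1961, 1847 and 2103 in the IB libraries and 1976, 1993 and 1866 in the DMSO libraries. In log2, NOP58 differed from DMSO by -0.22 ± 0.051 with KPT (adjusted p = 0.000239) and -0.15 ± 0.051 with PU (adjusted p = 0.00891). The PU call of NOP58 was lost without PU library C (adjusted p = 0.053), and without the variance trend (adjusted p = 0.0575). DKC1, the pseudouridine synthase of the box H/ACA snoRNPs, had log2 fold changes of -0.43 ± 0.038 with KPT and -0.48 ± 0.038 with PU (adjusted p = 1.51e-12 and 3.34e-14).

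All 12 small subunit factors fell with KPT and all 12 with PU, to a summed level of 11365 ± 333 normalized counts with KPT and 10357 ± 200.1 with PU, against 15963 ± 219 with IB and 16587 ± 259 with DMSO (SD, n = 3). RRP12, which helps export of the subunit precursor, had the lowest values of the group in both comparisons. RRP12 had 762, 629.6 and 773 normalized counts in the KPT libraries and 741, 713 and 781 in the PU libraries, against 1481, 1420.2 and 1369 in the IB libraries and 1467, 1596 and 1398 in the DMSO libraries. Against DMSO, RRP12 had log2 fold changes of -1.05 ± 0.063 with KPT (adjusted p = 1.5e-17) and -0.995 ± 0.063 with PU (adjusted p = 5.17e-17). HEATR1, a component of the early processome that also promotes polymerase I transcription, had the smallest PU fall among the 12 and the smallest KPT fall. HEATR1 had 2265, 2112 and 2138 normalized counts in the KPT libraries and 1985, 1835 and 1847 in the PU libraries, against 2523, 2405 and 2613 in the IB libraries and 2572, 2527 and 2519 in the DMSO libraries. HEATR1 thus had a log2 fold change against DMSO of -0.23 ± 0.046 with KPT (adjusted p = 5.34e-05) and -0.43 ± 0.046 with PU (adjusted p = 1.58e-10). No KPT or PU library of either gene reached the DMSO range.

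Among the other factors of the early small subunit processome, UTP15 and WDR43 belong to the complex that meets the nascent transcript. UTP15 was 293 ± 17.7 with KPT, 361 ± 21.2 with PU and 531 ± 7.09 with DMSO (normalized counts, SD, n = 3), with log2 fold changes of -0.86 ± 0.074 and -0.56 ± 0.074 (KPT, PU). WDR43 was 1671 ± 64.7 with KPT, 1632 ± 42.2 with PU and 2685 ± 77.2 with DMSO, with -0.68 ± 0.045 and -0.72 ± 0.045. UTP20, a large scaffold protein, was 1024 ± 45.4 with KPT, 969.6 ± 68.3 with PU and 1711 ± 29.9 with DMSO, with -0.74 ± 0.053 and -0.82 ± 0.053. For all 3 genes every KPT and PU library lay below every DMSO library. WDR3, a propeller protein of the U3-associated complex, was 1439.9 ± 39.8 with KPT, 1141 ± 96.1 with PU and 1960.4 ± 42.8 with DMSO, with -0.45 ± 0.051 and -0.78 ± 0.051. IMP4 binds the U3 snoRNA in yeast, and NOP14 and NOC4L form a complex there. IMP4 was 753 ± 55.0 with KPT, 641 ± 5.67 with PU and 942 ± 47.3 with DMSO, with -0.32 ± 0.059 and -0.56 ± 0.059. NOP14 had 1341, 1265 and 1336 in KPT, 1005, 1023 and 1068 in PU and 1734, 1792 and 1756 in DMSO libraries, with -0.42 ± 0.050 and -0.77 ± 0.050. NOC4L was 453 ± 5.20 with KPT, 539.8 ± 74.3 with PU and 739 ± 26.0 with DMSO, with -0.70 ± 0.072 and -0.46 ± 0.072. Late factors that travel with the precursor toward the cytoplasm, BYSL, LTV1 and TSR1, fell too. BYSL had -0.49 ± 0.064 and -0.66 ± 0.064, LTV1 -0.81 ± 0.099 and -0.58 ± 0.099, and TSR1 -0.52 ± 0.064 and -0.71 ± 0.064.

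Of the 14 large subunit factors, 13 fell with KPT and 13 with PU. Their summed level was 13238 ± 25.5 normalized counts with KPT and 13123 ± 174 with PU, against 19918 ± 162 with IB and 19945 ± 165 with DMSO (SD, n = 3). RRS1, which brings the 5S rRNA particle into the precursor, had the lowest KPT fold change of all 40 genes. RRS1 had 649, 640.3 and 633 normalized counts in the KPT libraries and 720.0, 733 and 702 in the PU libraries, against 1291, 1244 and 1282 in the IB libraries and 1307, 1469 and 1384 in the DMSO libraries. In log2, RRS1 differed from DMSO by -1.11 ± 0.053 with KPT (adjusted p = 1.71e-20) and -0.95 ± 0.053 with PU (adjusted p = 1.71e-18). NOP16 had the fourth lowest PU value. NOP16 had 486, 448 and 475 normalized counts in the KPT libraries and 431, 449 and 379 in the PU libraries, against 841, 815 and 822 in the IB libraries and 793, 778 and 825 in the DMSO libraries. Against DMSO, NOP16 had log2 fold changes of -0.77 ± 0.065 with KPT (adjusted p = 3.68e-13) and -0.93 ± 0.065 with PU (adjusted p = 1.04e-15). The KPT and PU libraries of both genes lay below all IB and DMSO libraries.

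BOP1, PES1 and WDR12 form the PeBoW complex, which is needed for maturation of the large subunit rRNA, and its 3 genes were called with PU but only BOP1 and PES1 with KPT. BOP1 was 75.5 ± 4.89 with KPT, 70.5 ± 13.2 with PU and 134 ± 25.5 with DMSO (normalized counts, SD, n = 3), and PES1 was 2661 ± 82.6 with KPT, 2939 ± 117 with PU and 4115 ± 10.9 with DMSO. Their log2 fold changes with KPT and PU were -0.81 ± 0.15 and -0.92 ± 0.15 for BOP1 and -0.63 ± 0.042 and -0.49 ± 0.042 for PES1. WDR12 had 906, 1018 and 971 normalized counts in the KPT libraries and 699, 688 and 608 in the PU libraries, against 941, 995 and 1032 in the IB libraries and 1085, 1029.7 and 1054 in the DMSO libraries. WDR12 thus had a log2 fold change against DMSO of -0.13 ± 0.059 with KPT (adjusted p = 0.0552) and -0.67 ± 0.059 with PU (adjusted p = 1.06e-12). WDR12 did not pass the threshold with KPT, although its KPT libraries did not overlap DMSO, and it passed without KPT library B (adjusted p = 0.0263), with equal totals (adjusted p = 0.0379), with TMM scaling (adjusted p = 0.0218) or with the compared groups alone (adjusted p = 0.0336). WDR74, another propeller protein of the large subunit precursor, had the weakest called KPT value. WDR74 had 753, 866 and 795 normalized counts in the KPT libraries and 597, 628 and 657 in the PU libraries, against 915, 973 and 939.9 in the IB libraries and 871, 947 and 929 in the DMSO libraries. In log2, WDR74 differed from DMSO by -0.19 ± 0.059 with KPT (adjusted p = 0.00689) and -0.54 ± 0.059 with PU (adjusted p = 2.65e-10). Its KPT call was lost without KPT library A (adjusted p = 0.0634).

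NOC3L, which works with NOC2L in moving the precursor out of the nucleolus in yeast, was among the 4 called genes with the PU values nearest to 0. NOC3L had 647, 621 and 549 normalized counts in the KPT libraries and 701, 704 and 675 in the PU libraries, against 977, 971 and 960.1 in the IB libraries and 889.8, 894 and 887 in the DMSO libraries. Against DMSO, NOC3L had log2 fold changes of -0.56 ± 0.059 with KPT (adjusted p = 1.27e-10) and -0.36 ± 0.059 with PU (adjusted p = 1.55e-06). NOC2L had -0.54 ± 0.049 with KPT and -0.53 ± 0.049 with PU (log2 fold change ± SE). GNL3, or nucleostemin, a GTPase of proliferating cells, was 956 ± 89.4 with KPT, 739.8 ± 28.3 with PU and 1158 ± 26.7 with DMSO (normalized counts, SD, n = 3), with -0.28 ± 0.058 and -0.65 ± 0.058. Both fell with KPT and with PU. NOP2, an rRNA methyltransferase, had -0.69 ± 0.051 and -0.67 ± 0.051, and RRP1B -0.72 ± 0.043 and -0.49 ± 0.043. MRTO4, which holds the place of a stalk protein, had -0.64 ± 0.050 and -0.75 ± 0.050, and NIP7, an RNA-binding factor, -0.63 ± 0.058 and -0.70 ± 0.058. PPAN, a homologue of yeast SSF1, had few counts and the largest SE of the set in MAVER. PPAN had 41.2, 32.1 and 44.9 normalized counts in the KPT libraries and 48.6, 72.0 and 59.6 in the PU libraries, against 116, 67.0 and 76.5 in the IB libraries and 59.9, 88.6 and 59.4 in the DMSO libraries. PPAN thus had a log2 fold change against DMSO of -0.79 ± 0.20 with KPT (adjusted p = 0.000798) and -0.20 ± 0.20 with PU (adjusted p = 0.417). The PU libraries overlapped DMSO, and the KPT libraries lay below it. PPAN shares its locus and strand with the readthrough gene PPAN-P2RY11, so reads of the pair may be split and its level is uncertain. RRS1, RRP12, LTV1, NOP2, HEATR1 and WDR74 also overlap other annotated genes on the same strand, so the same limit holds for their levels.

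Of the abundant nucleolar proteins, NCL fell with KPT and with PU, and NPM1 with PU only, at the threshold used. NCL, or nucleolin, binds rRNA precursors and histones. NCL had 12756, 13770.1 and 13741 normalized counts in the KPT libraries and 11330.0, 12027 and 11879 in the PU libraries, against 17321, 17659 and 18599 in the IB libraries and 17223, 17890.2 and 18067 in the DMSO libraries. In log2, NCL differed from DMSO by -0.40 ± 0.039 with KPT (adjusted p = 2.05e-11) and -0.59 ± 0.039 with PU (adjusted p = 2.47e-16). NPM1, or nucleophosmin, is a histone chaperone and assembly factor. NPM1 had 3768, 3619.5 and 3464 normalized counts in the KPT libraries and 2812, 2565 and 2271 in the PU libraries, against 3409.9, 3258 and 3619 in the IB libraries and 3742, 3465 and 3995 in the DMSO libraries. Against DMSO, NPM1 had log2 fold changes of -0.044 ± 0.055 with KPT (adjusted p = 0.51) and -0.55 ± 0.055 with PU (adjusted p = 2.39e-11). The KPT libraries of NPM1 overlapped DMSO, while all PU libraries lay below it. NPM1 has 45 named pseudogenes in the annotation, so its counts may be split among copies. The NPM1 interval with KPT was -0.16 to 0.066.

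Set directly against each other, PU and KPT differed at 26 of the 40 genes. With PU 11 were higher and 15 lower than with KPT (27.5% and 37.5%), against 28.3% higher and 28.6% lower of all genes. The share that was higher was thus near that of all genes. The median log2 fold change was -0.069. KPT library B alone gave 8 higher and 12 lower. Higher with PU were PPAN (0.59 ± 0.20), POLR1A (0.57 ± 0.052), UTP15 (0.30 ± 0.074), DDX21 (0.26 ± 0.041), NOC4L (0.25 ± 0.072) and LTV1 (0.24 ± 0.099) (log2 fold change ± SE, PU over KPT), followed by RRP1B (0.23), NOC3L (0.20), RRS1 (0.16), TCOF1 (0.15) and PES1 (0.14). Lower with PU were WDR12 (-0.54 ± 0.059), NPM1 (-0.51 ± 0.055), GNL3 (-0.37 ± 0.058), WDR74 (-0.36 ± 0.059), NOP14 (-0.35 ± 0.050), NOP56 (-0.34 ± 0.045), WDR3 (-0.34 ± 0.051) and POLR1E (-0.25 ± 0.068), followed by IMP4 (-0.23), HEATR1 (-0.20), TSR1 (-0.20), NCL (-0.19), BYSL (-0.17), NOP16 (-0.17) and FBL (-0.14). By role, 3 of 6 polymerase I genes were higher with PU and 1 lower, and of the 6 snoRNP genes 0 and 2. Of the 12 small subunit genes 3 were higher and 6 lower, and of the 14 large subunit genes 5 and 4. Both abundant nucleolar genes were lower.

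The clearest differences between the drugs were at POLR1A (log2 fold change 0.57 ± 0.052 SE, adjusted p = 1.76e-12), WDR12 (log2 fold change -0.54 ± 0.059 SE, adjusted p = 3.63e-10) and NPM1 (log2 fold change -0.51 ± 0.055 SE, adjusted p = 2.18e-10), whose PU and KPT libraries did not overlap. Calls of 8 genes in this comparison rested on single libraries. TSR1 was not called without KPT library A (adjusted p = 0.0549). BYSL was not called without KPT library A (adjusted p = 0.288) or PU library C (adjusted p = 0.0978). NOP16 was not called without KPT library A (adjusted p = 0.0968), KPT library C (adjusted p = 0.0669) or PU library C (adjusted p = 0.243). TCOF1 was not called without KPT library A (adjusted p = 0.137), KPT library B (adjusted p = 0.0721), PU library B (adjusted p = 0.0597) or PU library C (adjusted p = 0.279). NOC3L was not called without KPT library C (adjusted p = 0.0762). LTV1 was not called without KPT library A (adjusted p = 0.0933), KPT library C (adjusted p = 0.261), PU library A (adjusted p = 0.247) or PU library B (adjusted p = 0.0614). NOC4L was not called without PU library C (adjusted p = 0.108). PPAN was not called without KPT library B (adjusted p = 0.0679) or PU library B (adjusted p = 0.0801). UTP20 was called only without PU library A (adjusted p = 0.0385). LTV1 and NOP16 were also not called by edgeR (adjusted p = 0.0736 and 0.082) or DESeq2 (adjusted p = 0.115 and 0.0955), nor TCOF1 by DESeq2 (adjusted p = 0.199). With KPT library B alone, FBL (adjusted p = 0.0983) and RRS1 (adjusted p = 0.0723) were not called either, while POLR1C was called lower with PU (-0.31, adjusted p = 0.0219) and RRP12 higher (0.24, adjusted p = 0.0118). With equal totals, DKC1, NOLC1 and MRTO4 were called lower with PU (adjusted p = 0.0451, 0.041 and 0.0234). For genes that were not called the intervals were narrow in several cases, such as -0.095 to 0.10 for POLR1B, -0.098 to 0.099 for NOC2L and -0.17 to 0.15 for RRP9.

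**Figure D4:**
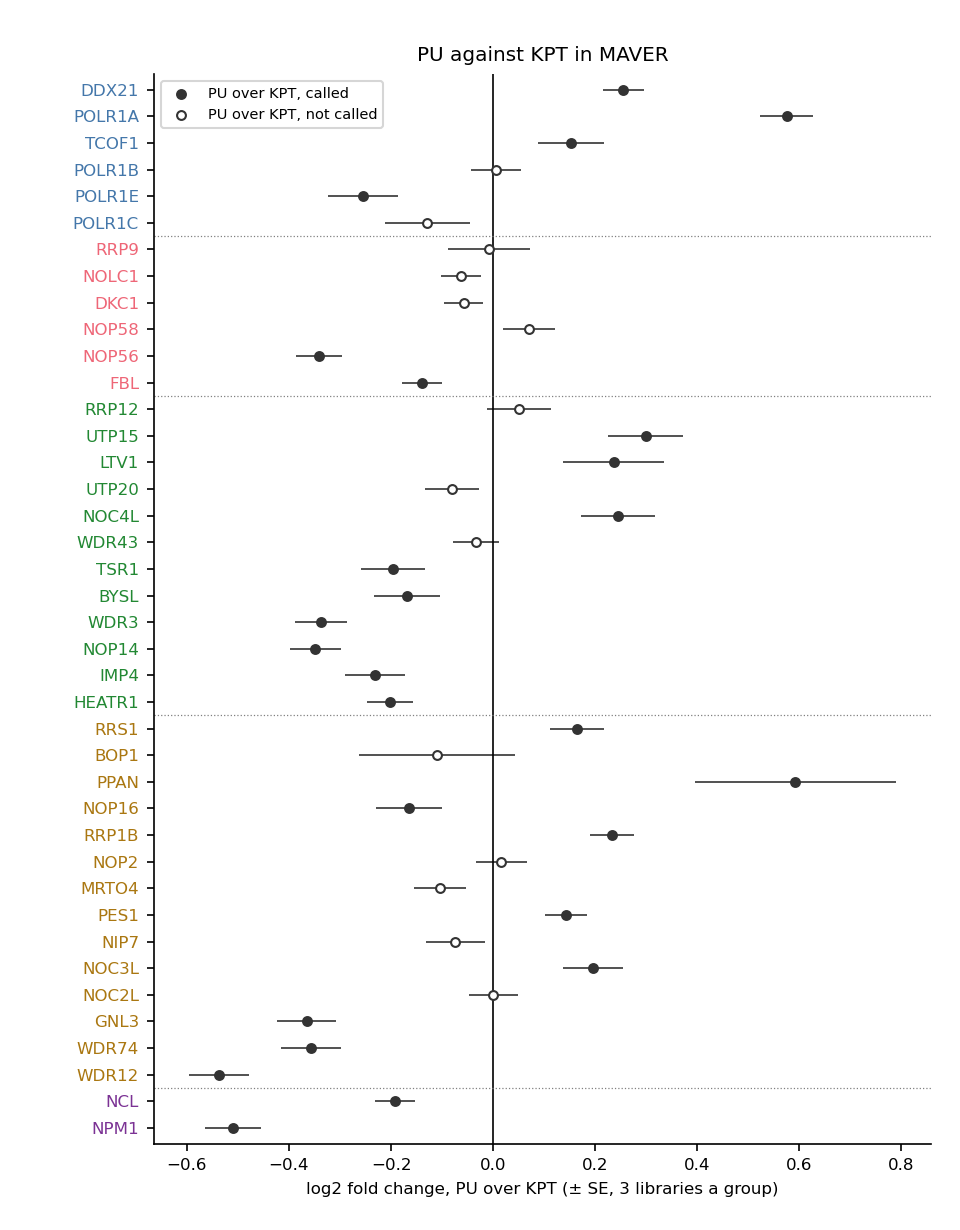
Log2 fold change of PU over KPT in MAVER (horizontal axis, ± SE, n = 3 libraries a group) for the 40 genes by role. Filled points passed an adjusted p under 0.05; POLR1A and PPAN lie farthest to the right and WDR12 and NPM1 farthest to the left.

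With IB in place of DMSO as the comparator, KPT gave 36 genes lower and 0 higher and PU 39 lower and 0 higher (limma; 28.2% of all genes were lower and 27% higher for KPT, and 27.6% lower and 27.5% higher for PU). At an unadjusted p under 0.05 the genes higher numbered 0 and 0 (KPT, PU), and edgeR and DESeq2 called 0 higher in both. Not called against IB were NOP56 (-0.075), WDR12 (-0.037), FBL (0.070) and NPM1 (0.077) for KPT and FBL (-0.069) for PU. WDR12 and WDR74 against IB had -0.037 ± 0.059 and -0.23 ± 0.059 with KPT. For KPT, FBL was called higher without IB library A (adjusted p = 0.0418) and NOP56 lower without IB library A (adjusted p = 0.0209). For PU, FBL was called lower with equal totals (-0.12, adjusted p = 0.00861), NOP58 was not called without IB library C (adjusted p = 0.0503), and PPAN not without IB library A (adjusted p = 0.303), PU library A (adjusted p = 0.171) or PU library C (adjusted p = 0.0564).

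MYC, the transcription factor named above, had another pattern in MAVER. It had 6779, 6412 and 6624 normalized counts in the KPT libraries and 4905, 5061 and 5316 in the PU libraries, against 6057, 6289.9 and 5988 with IB and 5168, 5421 and 5393 with DMSO. MYC rose with KPT (log2 fold change 0.31 ± 0.040 SE, adjusted p = 1.73e-08) and with IB (log2 fold change 0.20 ± 0.040 SE, adjusted p = 0.000219), and was not called with PU (log2 fold change -0.065 ± 0.040 SE, adjusted p = 0.17), although it was called lower with equal totals (adjusted p = 0.0184). In JEKO1 it fell with IB, to 7212, 7122 and 7774, against 11811, 11615 and 11836 with DMSO (log2 fold change -0.67 ± 0.039 SE, adjusted p = 3.26e-11). XPO1 with PU was 4259.5 ± 191, against 5232 ± 99.2 with DMSO (SD, n = 3; log2 fold change -0.30 ± 0.042 SE, adjusted p = 8.93e-08). Whether MYC transcript level bears on the set was not tested.

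IB changed few of the genes in MAVER. Of the 40 genes 2 rose and 2 fell (5% each), against 10.1% higher and 9.65% lower of all genes, and the median log2 fold change was 0.0016. POLR1C had 490.3, 447 and 456 normalized counts with IB and 373, 395 and 371 with DMSO (log2 fold change 0.29 ± 0.083 SE, adjusted p = 0.00971). RRP1B, an assembly factor that also recruits a phosphatase to the nucleolus, had 2744, 2817 and 2775 with IB and 2501, 2532 and 2541 with DMSO (log2 fold change 0.14 ± 0.043 SE, adjusted p = 0.0181). Both had every IB library above every DMSO library. UTP20 had 1490.2, 1424 and 1534 with IB and 1731, 1726 and 1677 with DMSO (log2 fold change -0.21 ± 0.053 SE, adjusted p = 0.00322), without overlap. DDX21 had 6766, 6927 and 7511 with IB and 7816, 7561 and 7749.8 with DMSO (log2 fold change -0.13 ± 0.041 SE, adjusted p = 0.0222). The call of POLR1C was lost without IB library A (adjusted p = 0.0636) and without the variance trend (adjusted p = 0.0561), that of RRP1B without DMSO library A (adjusted p = 0.071) or IB library B (adjusted p = 0.0704), and that of DDX21 without DMSO library A (adjusted p = 0.094), DMSO library C (adjusted p = 0.0698), IB library A (adjusted p = 0.158) or IB library B (adjusted p = 0.0969), and without the filter on low values (adjusted p = 0.0543) or without the variance trend (adjusted p = 0.107). NPM1 (-0.12 ± 0.055) was called lower only without DMSO library B (adjusted p = 0.0305). The fibroblast list summed to 45.8 to 54.9 with IB and 62.5 to 74.6 with DMSO, and the myeloid list to 10.6 to 14.9 with IB and 15.7 to 18.8 with DMSO, both without overlap, and their part in the result was not tested. Without IB library C, low in RNA45S5, 2 genes were called higher and 2 lower.

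In JEKO1, as labelled, IB lowered part of the set by small amounts. Of the 40 genes 15 fell and 1 rose, against 20.2% lower and 21.9% higher of all 11609 genes tested. The median log2 fold change was -0.076 over the 40 genes and -0.0062 over all genes. By role 4 of 6 snoRNP genes fell, 5 of 12 small subunit genes, 3 of 14 large subunit genes, 2 of 6 polymerase I genes and NCL. Without DMSO library C, rich in RNA45S5, 16 genes were called lower and 1 higher. The fibroblast list summed to 16.1 to 32.4 with IB and 5.59 to 9.54 with DMSO, with COL1A2 and COL3A1 at 0 in every JEKO1 library. The myeloid list summed to 3.44 to 7.32 and 7.76 to 11.4, the B cell list to 24951 to 25339 and 23476 to 24340.0, and CCND1 with SOX11 to 31102 to 31919 and 27982 to 29019 (IB, DMSO), each without overlap. CCND1 held nearly all of the last sum, with 26500 to 30600 over the JEKO1 libraries and SOX11 at 1220 to 1510. The part of these markers in the result was not tested.

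The lowest values belonged to RRP12, DKC1, POLR1A and POLR1B, from the small subunit, snoRNP and polymerase groups. RRP12 had 2216, 2258 and 2086 normalized counts with IB and 2801, 2789 and 2461 with DMSO (log2 fold change -0.29 ± 0.052 SE, adjusted p = 0.00012). DKC1 had 2694, 2887 and 2866 normalized counts with IB and 3474, 3393 and 3471 with DMSO (log2 fold change -0.29 ± 0.042 SE, adjusted p = 1.22e-05). POLR1A had 2586, 2611 and 2710.0 normalized counts with IB and 3299.8, 3361 and 3019 with DMSO (log2 fold change -0.29 ± 0.046 SE, adjusted p = 3.83e-05). None of these had an IB library within the DMSO range. POLR1B had 1746, 1762 and 1821 normalized counts with IB and 2121, 2091 and 2062 with DMSO (log2 fold change -0.24 ± 0.044 SE, adjusted p = 0.000219). TCOF1 was the gene that rose. TCOF1 had 2349.8, 2630.4 and 2371 normalized counts with IB and 2088, 1903 and 1719 with DMSO (log2 fold change 0.37 ± 0.060 SE, adjusted p = 5.59e-05). All 3 IB libraries were above all DMSO libraries, whereas TCOF1 was lower with KPT and with PU in MAVER. The weakest called falls were WDR43, WDR12 and NOLC1. WDR43 had 3347, 3458 and 3685 normalized counts with IB and 3942, 3853 and 3998 with DMSO (log2 fold change -0.17 ± 0.043 SE, adjusted p = 0.0034). WDR12 had 1014, 1125 and 1099 normalized counts with IB and 1186, 1153 and 1219 with DMSO (log2 fold change -0.14 ± 0.054 SE, adjusted p = 0.0462). NOLC1 had 10003, 10599.6 and 10675 normalized counts with IB and 11292, 11008 and 11361 with DMSO (log2 fold change -0.11 ± 0.038 SE, adjusted p = 0.0281). The calls of NOLC1 and WDR12 changed with single libraries. NOLC1 was not called without DMSO library A (adjusted p = 0.0946), DMSO library C (adjusted p = 0.0506), IB library A (adjusted p = 0.125) or IB library B (adjusted p = 0.0503), WDR12 not without DMSO library A (adjusted p = 0.105), DMSO library B (adjusted p = 0.0571), DMSO library C (adjusted p = 0.111), IB library A (adjusted p = 0.203) or IB library C (adjusted p = 0.0537), and NOC3L not without IB library A (adjusted p = 0.0547). Other settings lost NOLC1 without the filter on low values (adjusted p = 0.052) or without the variance trend (adjusted p = 0.153), WDR12 without the filter on low values (adjusted p = 0.0556), without the variance trend (adjusted p = 0.126) or by DESeq2 (adjusted p = 0.0833), WDR43 without the variance trend (adjusted p = 0.0597) and NCL without the variance trend (adjusted p = 0.0601). Without DMSO library C, NOP56 (adjusted p = 0.0332), BYSL (adjusted p = 0.0125) and PES1 (adjusted p = 0.0346) were also called lower.

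The other called genes in JEKO1 were WDR3 (-0.23 ± 0.044), NCL (-0.21 ± 0.045), NOP58 (-0.21 ± 0.048), HEATR1 (-0.21 ± 0.044), WDR74 (-0.20 ± 0.050), RRP9 (-0.20 ± 0.051), UTP20 (-0.20 ± 0.045) and NOC3L (-0.19 ± 0.056) (log2 fold change ± SE). NCL had 20435, 22737 and 23407 normalized counts with IB and 25239.5, 24999 and 26845 with DMSO, and NOP58 had 1995, 2150.0 and 2162 with IB and 2303, 2492 and 2497 with DMSO. The IB libraries of both genes lay below all DMSO libraries. RRS1 (-0.085 ± 0.068), DDX21 (-0.0059 ± 0.039) and NOP16 (-0.012 ± 0.062), 3 genes among the lowest with KPT or PU in MAVER, were not called with IB in JEKO1.

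**Figure D5:**
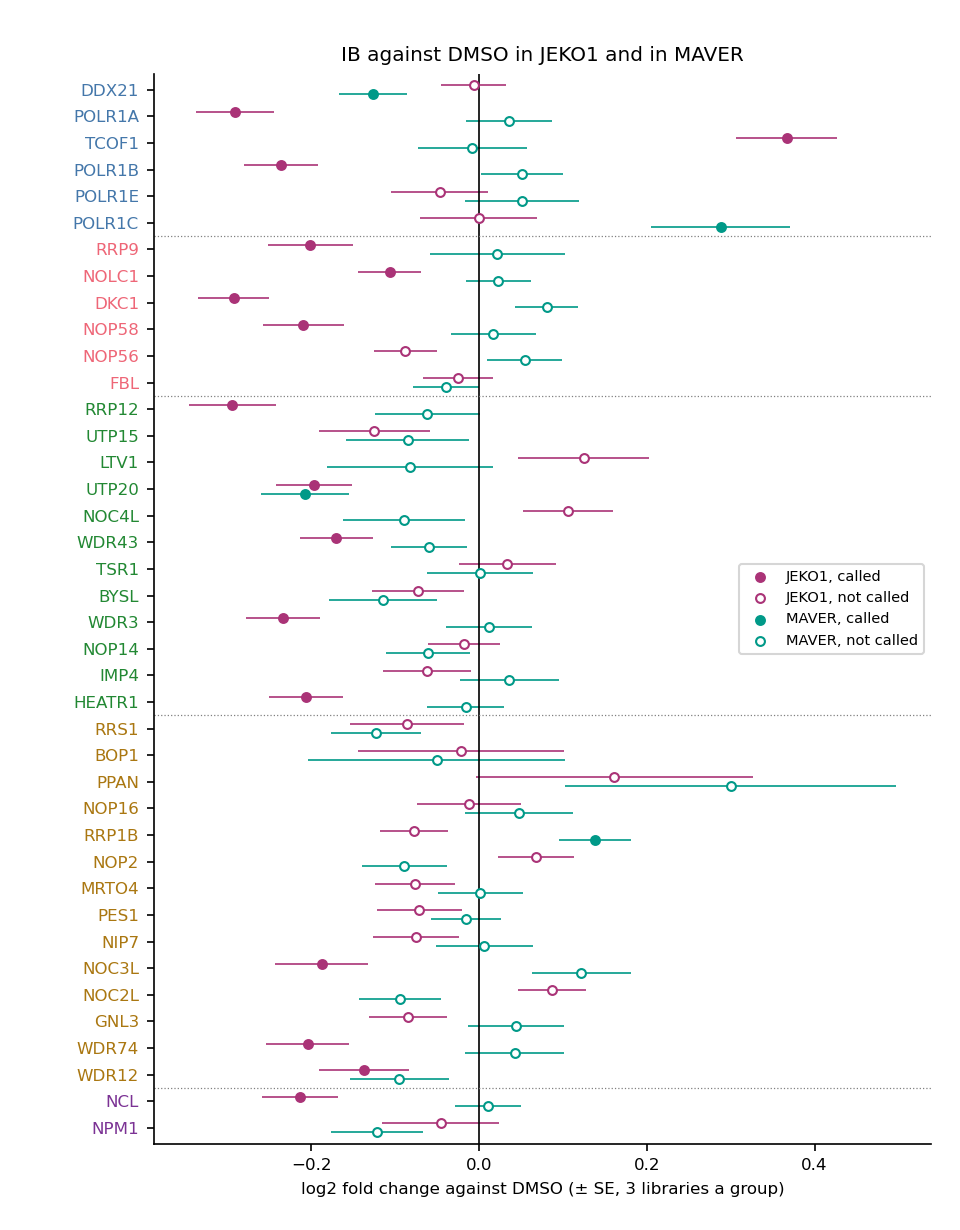
Log2 fold change of IB against DMSO (horizontal axis, ± SE, n = 3 libraries a group) in JEKO1 (purple, above) and MAVER (green, below) for the 40 genes by role, for the JEKO1 labels as given. Filled points passed an adjusted p under 0.05; all JEKO1 points but TCOF1 lie between -0.29 and 0.16, and the MAVER points scatter around 0 with POLR1C and PPAN farthest to the right.

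The IB effect differed between the lines at 17 genes. The effect in JEKO1 minus that in MAVER, each taken within its own table, was lower for 14 of the 40 genes and higher for 3, against 19.6% lower and 21.7% higher of all 10632 genes tested, with a median of -0.090. For the labels as given, examples were TCOF1 (0.37 ± 0.10 in log2, adjusted p = 0.00466), DKC1 (-0.37 ± 0.052 in log2, adjusted p = 1.75e-06), POLR1A (-0.33 ± 0.066 in log2, adjusted p = 0.000267) and NOC3L (-0.31 ± 0.071 in log2, adjusted p = 0.001). DKC1 had -0.29 in JEKO1 and 0.081 in MAVER, POLR1A -0.29 and 0.036, NOC3L -0.19 and 0.12, and TCOF1 0.37 and -0.0077. UTP20, which fell in both lines, was not called (0.011 ± 0.062, 95% interval -0.12 to 0.14). Which genes differed, and their order, depended on the JEKO1 labels. With the JEKO1 IB and DMSO labels exchanged, an alternative chosen after seeing the data, 10 of the 40 genes were higher and 2 lower, and UTP20 had the largest difference among those called (0.40, adjusted p = 3.17e-05), while NOC3L had 0.065 (adjusted p = 0.558) and DKC1 0.21 (adjusted p = 0.00419).

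A wider list of 128 other ribosome biogenesis genes, chosen by role and not including the 40, also fell in most cases. With KPT 90 of 127 tested fell and 10 rose, with a median log2 fold change of -0.33, and with PU 96 fell and 3 rose, with -0.35. Of all genes 28.5% fell and 27.3% rose with KPT, and 27.5% fell and 27.6% rose with PU. Lowest with KPT were CCDC86 (-1.30), SENP3 (-1.03) and RRP36 (-1.01), and highest EXOSC5 (0.53), ZNRD1 (0.48) and RSL24D1 (0.34) (log2 fold change). Lowest with PU were CD3EAP (-1.53), CCDC86 (-1.38) and PAK1IP1 (-1.20), and highest RSL24D1 (0.24), TSR2 (0.16) and RIOK2 (0.15). CD3EAP is a subunit of RNA polymerase I, CCDC86 a nucleolar protein and EXOSC5 a subunit of the RNA exosome, which trims rRNA precursors. CD3EAP had 266, 259.5 and 269.9 normalized counts in the PU libraries and 784, 774 and 753 in the DMSO libraries, and CCDC86 had 785, 736 and 784 in the KPT libraries and 1842, 1918 and 1934 in the DMSO libraries. Neither gene's drug libraries overlapped the DMSO libraries. PU against KPT gave 30 higher and 45 lower of 127 (23.6% and 35.4%), against 28.3% higher and 28.6% lower of all genes.

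With IB, 33 of 126 genes of the wider list fell in JEKO1 and 11 rose (against 20.2% lower and 21.9% higher of all genes), with RRP15 (-0.48), DIEXF (-0.41) and URB1 (-0.37) lowest and RRP36 (0.40), NOL12 (0.23) and RRP7A (0.22) highest. In MAVER 4 of 127 fell and 3 rose (against 9.65% lower and 10.1% higher of all genes), with WBSCR22 (-0.24), MPHOSPH10 (-0.23) and CCDC86 (-0.22) lowest and DDX51 (0.22), DDX54 (0.21) and TAF1D (0.19) highest. The IB effect was lower in JEKO1 than in MAVER for 27 of 126 and higher for 10, against 19.6% lower and 21.7% higher of all genes. With KPT 90% of the 40 genes and 70.9% of the wider list were called lower, and with PU 97.5% and 75.6%. The 2 lists come from the same fit, and the difference between them was not tested.

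In the annotation 9 of the 40 genes overlap snoRNA entries on the same strand and are called hosts here. Whether the entries lie in introns was not checked. GNL3 holds 6 entries, NOP56 5, NOP58 4, NCL and WDR43 3 each, DKC1, TSR1 and PPAN 2 each, and POLR1C 1. Some entries carry only an accession of an RNA family as name, and in GNL3 such a name is repeated. Among these hosts the KPT log2 fold changes ran from -0.79 (PPAN) and -0.68 (WDR43) to -0.22 (NOP58) and -0.021 (NOP56), and the PU values from -0.72 (WDR43) to -0.15 (NOP58). Both strong and weak values occurred among the hosts. The reads are 50 bases long and the tables hold 1 value per gene, so spliced host transcripts and unspliced precursors are not separated.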

How the data were processed

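Total RNA of 18 libraries was sequenced as single-end reads of 50 bases from stranded libraries, per the labels' protocols. The submitters' processing notes name FastQC, STAR, Cufflinks, DESeq2 and build hg19 without versions; read counter, strand setting and gene models were not given in the sources used here. The values analysed are normalized counts per gene (a signal), deposited by the authors in 1 table per line, each normalized on its own, so levels were compared within a line. Dividing by the value of 1 read gave whole reads for 100% of values (within 0.01 read). No file coordinates were used.

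Fits used limma 3.58.1 (R 4.3.3) with an empirical Bayes trend on log2(normalized count + 1), over genes with a mean of at least 10, with all 12 MAVER libraries in 1 fit and the 6 JEKO1 libraries in another; the difference between lines was an interaction over 12 libraries. Benjamini-Hochberg adjustment ran over all genes tested, with calls at an adjusted p under 0.05; fold changes on this scale understate those of low genes. Alternatives were pseudocounts of 0.5 and 5, no filter, rescaling to equal totals, TMM, no trend, a replicate block, compared groups alone, each library left out, KPT library B alone, exchanged JEKO1 labels (added after seeing the data), and, on recovered reads, edgeR 4.0.16 (which called 3150 genes lower and 3021 higher with KPT, and 3125 and 3300 with PU) and DESeq2 1.42.0. Replicate pairs differed by more than sampling noise (chi-square per degree of freedom 1.39 to 4.92). The pipeline was tested on simulated counts.

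The members, the wider list and the tests were chosen with earlier results of these data known. Library values are printed for the 4 lowest and the 4 highest called genes of each comparison with DMSO, for NPM1, NCL, FBL, NOLC1, TCOF1 and the 4 POLR1 genes in MAVER, and for a few further genes (WDR12, MYC and genes in the text chosen after their values were seen); up to 3 genes in each direction are named from the wider list.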

Additional observations from a re-analysis of the deposited data

Results flagged for a closer look

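The IB effect differed between JEKO1 and MAVER at 17 of the 40 genes by the test of the difference itself (limma interaction, Benjamini-Hochberg adjusted p under 0.05; values are the JEKO1 log2 effect minus the MAVER effect). Of the 40, 14 were lower and 3 higher (35% and 7.5%), against 19.6% lower and 21.7% higher of all genes. Only the number called in both directions together was near the general share, and the split between directions was not tested. Of the 17, 12 held with every single library left out, which were DKC1 (-0.37, adjusted p = 1.75e-06), POLR1A (-0.33, adjusted p = 0.000267), NOC3L (-0.31, adjusted p = 0.001), POLR1B (-0.29, adjusted p = 0.000444), WDR74 (-0.25, adjusted p = 0.00641), WDR3 (-0.25, adjusted p = 0.00124), NOP58 (-0.23, adjusted p = 0.012), NCL (-0.22, adjusted p = 0.00472), RRP1B (-0.22, adjusted p = 0.00182), HEATR1 (-0.19, adjusted p = 0.0119), NOC2L (0.18, adjusted p = 0.0136) and TCOF1 (0.37, adjusted p = 0.00466). The other 5 were POLR1C (-0.29, adjusted p = 0.0218), RRP12 (-0.23, adjusted p = 0.0176), RRP9 (-0.22, adjusted p = 0.0228), NOLC1 (-0.13, adjusted p = 0.0412) and NOP2 (0.16, adjusted p = 0.0488). POLR1C was not called without JEKO1 DMSO library A (adjusted p = 0.0672), JEKO1 DMSO library B (adjusted p = 0.0752), JEKO1 IB library C (adjusted p = 0.0669) or MAVER IB library A (adjusted p = 0.0629). RRP12 was not called without JEKO1 DMSO library A (adjusted p = 0.0595), JEKO1 DMSO library B (adjusted p = 0.0537), JEKO1 IB library C (adjusted p = 0.0513), MAVER DMSO library C (adjusted p = 0.064) or MAVER IB library A (adjusted p = 0.0516). RRP9 was not called without JEKO1 DMSO library A (adjusted p = 0.0557), JEKO1 IB library C (adjusted p = 0.053), MAVER DMSO library C (adjusted p = 0.0617) or MAVER IB library C (adjusted p = 0.0546). NOLC1 was not called without JEKO1 DMSO library A (adjusted p = 0.0811), JEKO1 DMSO library C (adjusted p = 0.0703), JEKO1 IB library A (adjusted p = 0.121), MAVER DMSO library A (adjusted p = 0.088), MAVER DMSO library C (adjusted p = 0.0717), MAVER IB library B (adjusted p = 0.0699) or MAVER IB library C (adjusted p = 0.083). NOP2 was not called without JEKO1 DMSO library B (adjusted p = 0.129), JEKO1 DMSO library C (adjusted p = 0.0607), JEKO1 IB library A (adjusted p = 0.054), JEKO1 IB library B (adjusted p = 0.147), MAVER DMSO library A (adjusted p = 0.101), MAVER DMSO library B (adjusted p = 0.0949), MAVER IB library A (adjusted p = 0.106) or MAVER IB library C (adjusted p = 0.0921). Without the variance trend, TCOF1 (adjusted p = 0.0628), NOP58 (adjusted p = 0.061) and NCL (adjusted p = 0.0558) were not called. POLR1C, RRP12, NOLC1 and NOP2 were lost there too (adjusted p = 0.0592, 0.0828, 0.108 and 0.102). DESeq2 did not call RRP9, NOLC1 or NOP2 (adjusted p = 0.0513, 0.0508 and 0.0521). NOLC1 was also lost by edgeR, with TMM scaling and without the filter on low values (adjusted p = 0.065, 0.0563 and 0.0608). Equal totals and no filter also lost NOP2 (adjusted p = 0.0553 and 0.0639). In the other direction, DDX21 was called without JEKO1 DMSO library C (adjusted p = 0.0338) or MAVER IB library C (adjusted p = 0.0165), NOP56 without JEKO1 DMSO library C (adjusted p = 0.0464) or MAVER IB library A (adjusted p = 0.00895), NOC4L without MAVER IB library A (adjusted p = 0.0173), and LTV1 without MAVER IB library C (adjusted p = 0.0317). All of these values hold for the JEKO1 labels as given, and opposite responses of the lines cannot be told apart from exchanged labels. With the labels exchanged the list was another one: UTP20 (0.40), WDR43 (0.23) and WDR12 (0.23) joined it. NOC3L (0.065), WDR74 (0.16), RRP1B (-0.061) and NOC2L (0.0070) were among those no longer called.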

How the results depend on the processing

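No call of the 40 genes changed direction under any alternative run in the 8 comparisons, other than exchanged JEKO1 labels, which are left out of the counts of lost calls. Of the 36 KPT calls 4 were lost in at least 1 alternative, and of the 39 PU calls 3; for PU against KPT 10 of 26 were lost, for IB in JEKO1 5 of 16, for IB in MAVER 3 of 4, and for the difference between lines 8 of 17. No rescaling moved the median of all genes by more than 0.1. RNA45S5 reversed with KPT library B alone, to -0.84 against DMSO (adjusted p = 0.0181), -0.71 against IB, and 1.12 for PU against it; the alternative leaves out the 2 libraries rich in it.

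Small counts moved more than 1.5 times. Without the trend, IB in MAVER gave 1 of the 40 genes higher and 1 lower and 1 of the wider list higher, IB in JEKO1 3 of the wider list higher and 21 lower, PU against DMSO 1 higher, and the difference between lines 1 of the 40 higher and 9 lower. Without the filter on low values, IB in MAVER gave 1 of the 40 lower and 1 of the wider list higher, and IB in JEKO1 7 higher. DESeq2 called 6 of the wider list higher in JEKO1, edgeR 5 higher with IB in MAVER, and rescaling to equal totals left 1 higher with PU against DMSO and 1 against IB. Left-out libraries gave ranges of 5 to 11 of the wider list higher with IB in JEKO1, 1 to 2 of the 40 higher and 1 to 3 lower and 1 to 4 of the wider list higher with IB in MAVER, 1 to 2 of the wider list higher with PU, 0 to 1 of the 40 higher for KPT against IB and 1 to 4 of the wider list higher for PU against IB. The cause was not tested.

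The replicate letters did not pair the libraries (same-letter correlations of residuals -0.092 to 0.12), and not every library correlated best with its own letter. With the replicate block, 5 of the 40 genes and 16 of the wider list were higher in the difference between lines, with DDX21 and NOC4L gained as higher. NOP56 was gained as lower, both there (-0.14) and with IB in JEKO1 (-0.088), and no other call of the 40 changed.

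With the JEKO1 labels exchanged (added after seeing the data), the difference between lines gave 10 of the 40 higher and 2 lower, 21 and 2 of the wider list and 1042 and 1379 of all genes. By construction the JEKO1 effect turned, and with it the signs of POLR1A (0.25), POLR1B (0.18), TCOF1 (-0.36), NOP58 (0.19), DKC1 (0.21), RRP9 (0.18), NOLC1 (0.083), WDR43 (0.23), HEATR1 (0.22), WDR3 (0.22), RRP12 (0.36), WDR12 (0.23), WDR74 (0.16), NOC3L (0.065), NCL (0.20), MYC (0.48), XPO1 (-0.048) and BTK (-0.16). The low-count genes PPAN and BOP1 had SEs of 0.20 and 0.15 in MAVER.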
